A study of Mus musculus with 8 samples.

Results

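Normal belly skin of the mouse was described from the arrays of wildtype animals, which made up 4 of the 8 arrays and 3 of the 7 animals of the series. They were chosen by their wildtype titles alone, and no measured value entered the choice. Animals 26 and 28 were male and animal 29 was female. All were 8 months old and carried no transgene, since they served as controls of mice transgenic for human hurpin, a serpin that inhibits cathepsin L. Total RNA of whole belly skin was labelled by Affymetrix's one-cycle procedure, and each array of mouse probe sets took the RNA of 1 animal; animal 29 was run on a repeat array too. The strain, the phase of the hair cycle and whether the repeat was labelled anew are not given in the sources used here. Values are log2 of signal plus a pseudocount of 21.8, so that 4.45 is the floor of the scale. A value after ± is the SD over 3 animals with the arrays of animal 29 averaged. It is a spread between animals, not the error of a measurement. The animals differ in sex, dissection and identity at once, and these cannot be told apart with 3 animals.

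Skin is a layered organ. Basal keratinocytes, marked by Krt5 and Krt14, divide and move upwards. They switch to Krt1 and Krt10 in the spinous layers and end as cornified cells built from loricrin, small proline-rich proteins and late cornified envelope proteins. Hair follicles pass through cycles of growth, regression and rest, and hair keratins and keratin-associated proteins are made only while a shaft is being built. Fibroblasts of the dermis secrete collagen, a fat layer lies below, and in mice a thin sheet of skeletal muscle, the panniculus carnosus, is attached to the skin.

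The ranking held 34945 probe sets with exactly 1 gene symbol, for 18193 genes, ordered by mean log2 signal. A rank of signals is not a rank of molecule numbers, because probe sets differ in affinity. In bulk tissue, fewer cells of a type and less RNA per cell cannot be told apart. The 4 arrays were alike in scale, with a summed signal of 34537792 to 35857385 and a Gapdh 3' to 5' ratio of 0.927 to 1.41. Over 45037 probe sets the repeat arrays of animal 29 correlated at 0.969. Animal 28 correlated with them at 0.965 and 0.966, and animal 26 correlated with the other arrays at 0.931 to 0.941, the lowest values. The sex-linked genes followed the labels. Xist, which silences the inactive X chromosome of females, measured 7.00, 7.10, 12.77 and 12.90 on arrays 26, 28, 29 and the repeat, and the Y-linked translation factor gene Eif2s3y measured 11.32, 11.35, 4.96 and 4.61. The precision of every value is limited by the number of arrays.

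The 5 compartment markers were all high. Krt10, the spinous keratin, measured 15.37, 14.82, 14.71 and 14.65 in the same array order and stood at rank 22. Acta1, the actin of skeletal muscle, measured 14.80, 14.70, 14.39 and 14.26 at rank 69. Col1a1, a chain of type I collagen, measured 15.15, 14.97, 13.81 and 13.45 at rank 74. Epidermis, muscle and dermis were thus all represented near the top, with Col1a1 lowest on both arrays of animal 29. Lor, the envelope protein loricrin, measured 14.76, 14.17, 14.11 and 13.84 at rank 111. Adipoq, the adipocyte hormone adiponectin, measured 13.87, 13.35, 13.58 and 13.41 at rank 251. Markers of tissues that should be absent were mostly low. In a list of 23 genes of other organs, 9 passed the level filter (a mean log2 of at least 6.50, the 40th percentile), against 13440 of all 18193 genes. Scgb1a1, a secretoglobin, was highest at 9.56 ± 0.88 (SD, n = 3), above 9.26, the median of all genes past the filter.

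Promoters are shown first, because the groups that held the steadiest and the most variable transcripts differed in them. Each line gives the 60 bases before the annotated start, 5′ to 3′ on the gene's strand, from RefSeq on GRCm38.p6, with TATAAA, the letters of a TATA box, in capitals where they occur. The first 4 are genes of hair shaft or inner root sheath, the next 2 are epidermal, and the last 3 encode a ribosomal protein, a translation factor and a collagen chain. The lines are examples and do not give the share of each group, which follows below. The match of Krt33b begins 47 bases before the start, outside the short stretch counted below. Among genes not shown, Defb8, with the largest SD of all ranked probe sets, held no exact TATAAA in its 60 bases, though these held the similar letters tatataag. In Acta1 of skeletal muscle TATAAA began 7 bases before the start.
Krt33b (chr11:100029869-100029928, minus strand): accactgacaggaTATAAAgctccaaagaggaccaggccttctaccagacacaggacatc
Krtap16-3 (chr16:88962874-88962933, minus strand): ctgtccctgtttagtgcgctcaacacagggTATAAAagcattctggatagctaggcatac
Krtap11-1 (chr16:89571184-89571243, minus strand): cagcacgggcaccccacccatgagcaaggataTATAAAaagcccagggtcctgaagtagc
Krt25 (chr11:99322952-99323011, minus strand): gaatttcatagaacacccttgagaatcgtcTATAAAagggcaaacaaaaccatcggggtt
Krt10 (chr11:99389365-99389424, minus strand): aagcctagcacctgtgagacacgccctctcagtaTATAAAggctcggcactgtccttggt
Lor (chr3:92083143-92083202, minus strand): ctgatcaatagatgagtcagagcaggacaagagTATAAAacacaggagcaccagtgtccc
Rps3a1 (chr3:86142669-86142728, minus strand): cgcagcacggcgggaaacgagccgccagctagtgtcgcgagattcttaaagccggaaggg
Eef1a1 (chr9:78481725-78481784, minus strand): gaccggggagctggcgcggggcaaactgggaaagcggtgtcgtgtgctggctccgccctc
Col1a2 (chr6:4505558-4505617, plus strand): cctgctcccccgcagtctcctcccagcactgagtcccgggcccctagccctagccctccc

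The 300 bases from 250 before to 50 after the start were searched for TATAAA on both strands, and the stretch from 40 to 16 bases before the start on the gene's strand. In the hair shaft list 24 of 48 promoters (50%) held it in the short stretch, against 600 of 27025 (2.22%) over all genes of the promoter table. In the cornified epidermis list 14 of 54 (25.9%) held it there, in the follicle sheath list 6 of 18 (33.3%), in the ribosome list 1 of 43 (2.33%), and in the respiratory chain and cell cycle lists 0 of 63 and 0 of 22. Over the whole 300 bases the shares were 70.8% for the hair shaft, 11.6% for the ribosome and 14.2% for all genes. Hair shaft promoters were also poorer in G and C, with a median of 41.4% over the 250 upstream bases and 2 CG dinucleotides, against 56.4% and 18 for the ribosome and 52% and 6 for all. The table holds genes that are not on the array. Over the ranked genes with an entry (14536 of 18193, just under 80%) the values were 57.6%, 13 and, for the motif over 300 bases, 9.86%, so the ribosome lies on the other side of these in its G and C share and its motif share. Of the 367 genes among the 500 highest signals, 300 had a promoter in the table, and 17 of these (5.67%) held the motif in the short stretch. For the genes of the 100 highest signals and for dermis, fat, muscle, melanocyte, macrophage and spinous epidermis, fewer than 80% had an entry, so the comparison is void for them. The ranked genes as a whole, with 79.9%, also fall just under this limit, so values set against them carry the same reservation. A match describes letters, not a site that is used, and a gene with several annotated starts is represented by the first in the table.

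The most abundant signals came from the protein synthesis machinery, followed by dermis and epidermis. Of the 25 highest probe sets, 16 belonged to ribosomal proteins, 4 to dermis, 2 to translation factors and other housekeeping genes, and 1 each to epidermis, the lipid list and the respiratory chain. Rps29, a protein of the small ribosomal subunit, led with 15.37, 15.35, 15.27 and 15.21 (15.32 ± 0.07, SD, n = 3). Gsn, the actin-severing protein gelsolin, which fibroblasts express strongly, measured 15.55, 15.27, 15.14 and 15.03. Eef1a1, the elongation factor that brings aminoacyl-tRNA to the ribosome, measured 15.23, 15.27, 15.19 and 15.06. These leading signals lay within 1 log2 unit of each other, at the upper end of the values. Ribosomal probe sets, many of a type that also matches related sequences, can share signal with pseudogenes and paralogs.

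Genes of the collagen matrix and a lipid carrier were also in that group. Col3a1 and Col1a2, chains of type III and type I collagen, had means of 15.20 ± 0.38 and 15.06 ± 0.43 (SD, n = 3), and Sparc, a collagen-binding matrix protein, 15.13 ± 0.63. All of them were lowest on both arrays of animal 29. Fabp5, the fatty acid carrier of keratinocytes and sebocytes, measured 15.09 ± 0.07. Below them came Cst6, an inhibitor of cathepsins in cornifying cells, with 14.92 ± 0.13 (SD, n = 3) at rank 26, and Car3, the carbonic anhydrase of fat and muscle, with 14.91 ± 0.10 at rank 27.

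**Figure D1:**
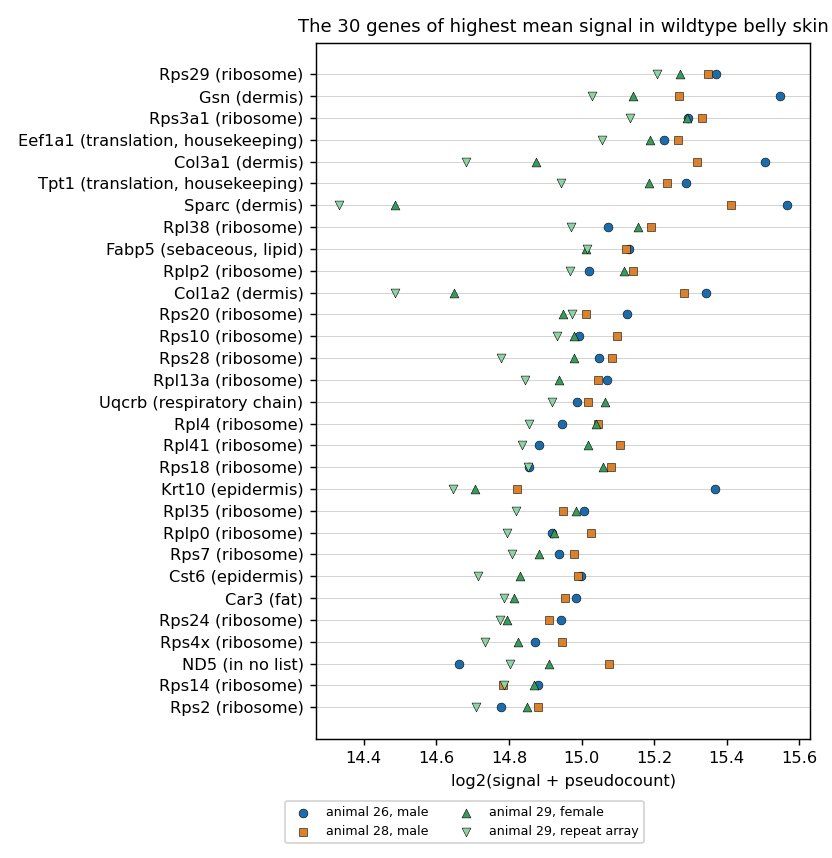
Log2 signal (horizontal axis, pseudocount added) of the 30 genes with the highest mean, in rank order from the top, with 1 point per wildtype array and the compartment list in brackets. Ribosomal genes such as Rps29 lie close together on all arrays, whereas Sparc spreads from 14.33 to 15.57, with both arrays of animal 29 lowest, and Krt10 is highest in animal 26 at 15.37.

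Among the 500 highest probe sets (mean log2 of 13.0025 or more), which are 1.43% of those ranked, 67 were ribosomal, 38 belonged to the respiratory chain, 35 to epidermis, 28 to dermis, 20 to housekeeping genes, 12 to skeletal muscle, 11 to immune lists, 8 to sebaceous and lipid genes, 6 to fat and 3 to follicle. Set against what was on the array, 63.8% of the ribosomal probe sets, 24.5% of the respiratory chain, 21.2% of dermis, 20.1% of epidermis, 10.7% of muscle, 10% of fat and 7.43% of immune probe sets reached this level. No ranked probe set of the endothelium, melanocyte, nerve, erythroid, mesothelium, cell cycle, circadian or interferon lists did. Probe sets with several gene symbols were not ranked. The other 264 were in no list. They included ND5, a subunit encoded by mitochondrial DNA, at 14.87 ± 0.21 (SD, n = 3), and Apoe, the apolipoprotein made by macrophages and other cells, at 14.58 ± 0.11, both picked after their values were seen. Probe sets just inside and just outside the limit had means of 13.0025 and 13.0015, so the limit falls in no gap.

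**Figure D2:**
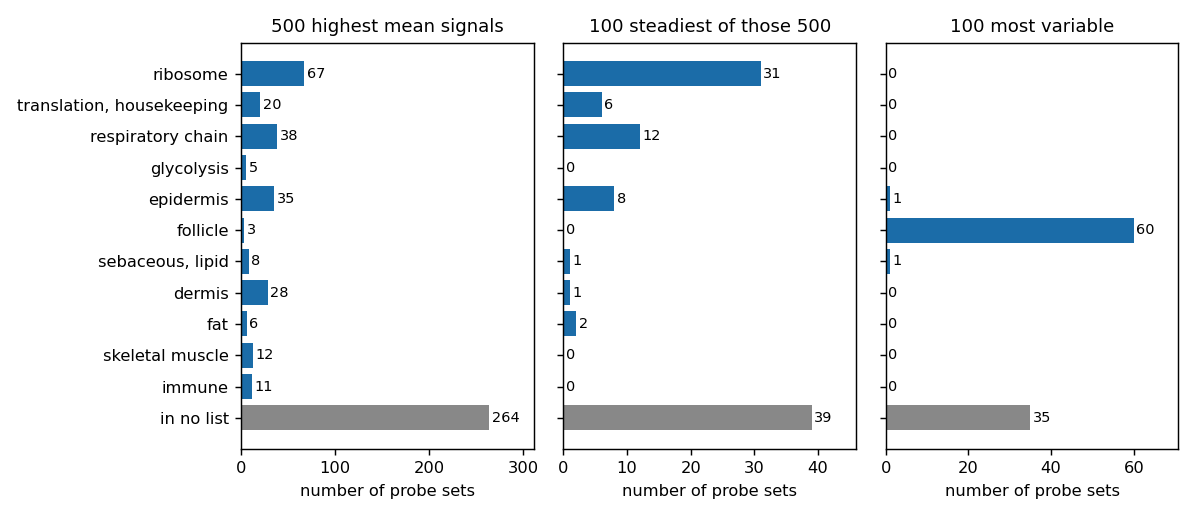
Number of probe sets of each compartment among the 500 highest mean signals, among the 100 of these with the smallest SD over animals, and among the 100 with the largest SD past the level filter. Ribosomal genes hold 67, 31 and 0, follicle genes hold 3, 0 and 60, and genes in no list are shown in grey.

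Within the epidermis every layer had members at the top, and the dermis contributed many of the highest signals. In the basal layer Krt14, the keratin that pairs with Krt5, had 14.18 ± 0.12 (SD, n = 3) and Krt5 had 13.92 ± 0.07. In the spinous layer Sbsn, the secreted protein suprabasin, had 14.64 ± 0.24 and Dsp, the desmosomal anchor desmoplakin, 14.55 ± 0.07. In the cornified layer Crct1, encoded in the epidermal differentiation complex, had 14.68 ± 0.05 and Sprr1a, a small proline-rich envelope protein, 14.59 ± 0.57. Of the listed genes measured, 5 of 17 basal, 11 of 24 spinous, 13 of 67 cornified and 18 of 56 dermal genes were among the 500 by their highest probe set. In the fat list Fabp4, the fatty acid carrier of adipocytes, had 14.60 ± 0.06 and Lpl, the lipase that releases fatty acids from lipoproteins, 14.04 ± 0.08. In skeletal muscle Myl1, a fast myosin light chain, had 14.30 ± 0.23, Myh1, the fast type IIx heavy chain, 14.22 ± 0.44, and Tnnc2, the fast troponin C, 14.12 ± 0.24. The slow heavy chain Myh7, picked after its value was seen, was at 5.91 ± 0.36, below the level filter. The immune genes that reached the 500 were chiefly of macrophages and antigen presentation: Lyz1, a lysozyme, had 14.40 ± 0.37 and Cd74, the MHC class II invariant chain, 14.04 ± 0.53.

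With all animals included, the steadiest of the abundant transcripts were those of ribosome, respiration and general cell upkeep. The 100 with the smallest SD among the 500 had SDs of 0.0170 to 0.0725, with the next at 0.0728. They held 31 ribosomal, 12 respiratory chain, 8 epidermal, 6 housekeeping, 2 fat, 1 dermal and 1 lipid probe set, and 39 in no list. Uqcrb, a subunit of respiratory complex III, was steadiest with 14.99, 15.02, 15.06 and 14.92 (SD 0.017). Oaz1, the antizyme that controls polyamine synthesis, measured 13.87, 13.88, 13.80 and 13.88, and Eef2, the translocation factor of the ribosome, 14.08, 14.14, 14.11 and 14.10. In this group the arrays of animal 29 differed from each other by a median of 0.112, more than the median SD of 0.0533 between animals. The order within it therefore lies below the reproducibility of an array, and which probe sets entered depended on the animals: 25 of the 100 were shared when animal 26 was left out. Without animal 26 the ribosomal share of the 100 steadiest was also lower. It then lay below the 13.4% that ribosomal probe sets held among the 500 with all animals. As whole lists, without a choice by spread, ribosomal and respiratory chain genes had lower SDs than all genes. The median SD was 0.08 for 48 ribosomal and 0.12 for 73 respiratory chain genes past the level filter, against 0.25 for all 13440 genes and 0.16 for the 500 highest probe sets, whose level is nearer to theirs.

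Follicle genes were the largest listed group among the most variable transcripts, with animal 26 apart from the others. The 100 probe sets with the largest SD had SDs of 2.39 to 5.74, with the next at 2.34, and a median difference of 0.109 between the repeat arrays. They held 60 follicle probe sets, 3 of sex-linked genes, 1 epidermal, 1 lipid and 35 in no list. In 91 of the 100, animal 26 was the one that stood apart, always on the low side. Animal 29 stood apart in 8 and animal 28 in 1. Of the 35 in no list, 30 had animal 26 apart and low. Fbp1, the gluconeogenic fructose bisphosphatase, measured 4.86, 12.76, 12.97 and 12.91, and the predicted gene Gm11559 4.89, 14.35, 14.41 and 14.16.

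Hair shaft genes were low in animal 26 and mostly high in the other animals. Krt33a, an acidic hair keratin, measured 5.55, 14.75, 14.78 and 14.56 on arrays 26, 28, 29 and the repeat. Krtap19-2, a keratin-associated protein rich in glycine and tyrosine, measured 5.36, 14.77, 15.03 and 14.90. Krtap8-1, the listed shaft gene with the highest mean, measured 8.47, 14.99, 15.01 and 14.86. The values of animal 26 stood far below those of the other animals, which agreed to within 0.3 log2 units for each of these genes. Over the 58 shaft genes past the level filter the values in animal 26 ran from 4.92 through a median of 6.96 to 9.89, and 16 of the 58 were below 6.50. In animal 28 they ran from 8.82 through 13.83 to 14.99. The mean of the 58 was 6.83, 13.16, 13.35 and 13.31, a log2 difference of -6.42 between animal 26 and the mean of the other animals. Some values of animal 26 lie at background, so this difference may be understated.

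A ranking made from each array alone therefore differed. Follicle probe sets made up 2 of the 500 highest in animal 26, 48 in animal 28, and 51 and 50 on the arrays of animal 29. The median rank of the 58 shaft genes was 21609 in animal 26, and 239, 186.5 and 164 on the others. On array 28 alone 12 of the 100 highest probe sets were of the hair shaft, on array 29 alone 17, and on array 26 alone 0. The 3 follicle probe sets among the 500 by the mean are thus an average over unlike skins: without animal 26 there were 50. Genes of the keratin-associated families are closely alike, and their probe sets may share signal.

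**Figure D3:**
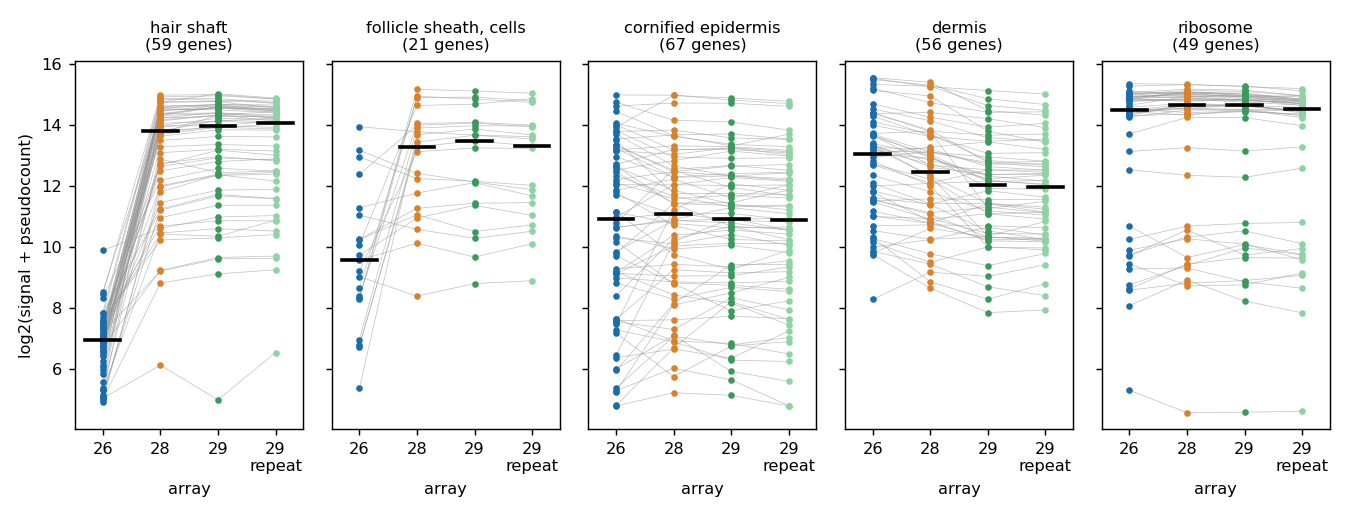
Log2 signal of every listed gene measured (points, 1 per gene; most abundant probe set) on each wildtype array, with grey lines joining a gene and black bars at the median, for 5 gene lists. The hair shaft panel shows animal 26 far below the others, the ribosome panel shows no such step, and cornified genes cross in both directions.

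Whether animals differed by more than arrays do was tested with limma's moderated F over the 3 animals. The error comes from the repeat arrays of animal 29 alone, so the test sets individual animals against array noise and compares no groups. Of 27022 probe sets past the level filter 4865 passed at an adjusted p under 0.05 (18.0%), and 7957 had an unadjusted p under 0.05. The share rose with signal, from 4.34% in the lowest of 4 equal level bins to 32.0% in the highest. Counted by gene, each with its most abundant probe set, 3032 of 13440 passed (22.6%), which is the share to read each list against. These counts hold for the chosen settings. Without a trend of the error with signal level, 317 of the 27022 probe sets passed, and with no level filter 1222 of 45037. Animal 26 was the one apart in 3863 of the 4865 (2073 lower, 1790 higher), animal 29 in 798 and animal 28 in 204. Without animal 26 the count was 321.

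In the follicle lists 58 of 58 shaft genes and 17 of 21 sheath genes passed. Of the 58, 16 were below 6.50 in animal 26, so they entered the test through the other animals. The lists were also chosen with earlier results of these data known, so these counts are no independent support. Of all 13440 genes, 36.6% were lowest in animal 26. All 58 shaft genes were lowest in animal 26 (limma adjusted p = 5.85e-15 for Krt33a, 0.957 without animal 26 and 4.46e-38 to 0.957 over all alternatives). The sheath list held both directions. Inner root sheath genes were lower in animal 26: Krt25, a keratin of that sheath, measured 8.33, 15.18, 15.13 and 15.06, and Tchh, trichohyalin, which hardens it, 10.07, 14.65, 14.70 and 14.88. Other genes of the list went either way. Krt75 measured 9.22, 13.13, 13.26 and 13.24, and Lhx2 10.25, 11.27, 11.44 and 11.46. Both were lower in animal 26 too and were picked after their values were seen. Some members did not share this step. Cd34, a marker of bulge stem cells and also of blood vessel and dermal cells, measured 13.18, 12.42, 12.13 and 11.89 (adjusted p = 0.000201) and was picked after its value was seen. Krt79, of the upper follicle, measured 13.96, 13.79, 13.68 and 13.63 (adjusted p = 0.362). Thus 13 of the 17 were lowest in animal 26 and set apart by it, 3 were highest there, and 1 set animal 28 apart.

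Cell cycle and pigment genes were lower in animal 26 as well. In the cell cycle list 23 of 25 passed, all with animal 26 apart and low. Mki67, a protein of dividing nuclei, measured 10.12, 11.97, 12.46 and 12.19 (adjusted p = 2.57e-07), and Pcna, the sliding clamp of DNA replication, 12.42, 13.08, 13.29 and 13.06 (adjusted p = 0.00616). In the melanocyte list 8 of 10 passed, 7 of them with animal 26 apart and low. Dct, a pigment synthesis enzyme, measured 9.11, 11.87, 11.66 and 11.58, and Tyrp1, another, 8.08, 11.55, 11.22 and 11.08. The highest member was Gpnmb, a glycoprotein that macrophages also make, with 12.31, 12.35 and, over both its arrays, 11.94 in animals 26, 28 and 29 (adjusted p = 0.0794). The mean of the 10 was 8.52, 10.60, 10.16 and 10.18.

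Mean levels of the basal, spinous and cornified lists were close on all arrays, while single genes crossed in both directions. The basal mean was 11.41, 11.42, 11.48 and 11.47, and the spinous mean 12.85, 12.76, 12.74 and 12.71. The mean of 62 cornified genes was 10.98, 11.02, 11.03 and 10.99, although 36 of them passed, 21 with animal 26 apart and high and 14 with it apart and low. Among the high ones were Lor (adjusted p = 0.0101) and, picked after their values were seen, Lce1m, a late cornified envelope protein, with 13.50, 11.76, 11.76 and 11.73, and Hrnr, the filaggrin relative hornerin, with 12.65, 11.42, 10.68 and 10.58. Among the low ones were Sprr1a with 13.94, 14.98, 14.90 and 14.79, Sprr1b with 6.44, 10.18, 10.94 and 10.55, and Sprr2h with 7.46, 11.23, 12.08 and 11.87. Late cornified envelope genes stood on both sides, since Lce3a was low in animal 26 with 5.25, against 8.10 in animal 28 and 8.75 as the mean of both arrays of animal 29 (adjusted p = 9.13e-06). Of the basal genes 5 of 17 passed and of the spinous genes 8 of 23, nearer to the 22.6% of all genes. Krt1, the partner of Krt10, was the most variable of the spinous genes with 13.96, 12.86, 11.87 and 11.61 (adjusted p = 2.25e-07). In the list of stress keratins and alarmins 4 of 9 passed, with a mean of 9.11, 9.65, 9.34 and 9.51. Krt6a, a keratin of the companion layer of the follicle and of wounded epidermis, measured 11.53 in animal 26, 13.16 in animal 28 and 13.02 in animal 29, and S100a8, a calcium-binding alarmin, 8.49, 10.81 and 10.72, both low in animal 26.

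**Figure D4:**
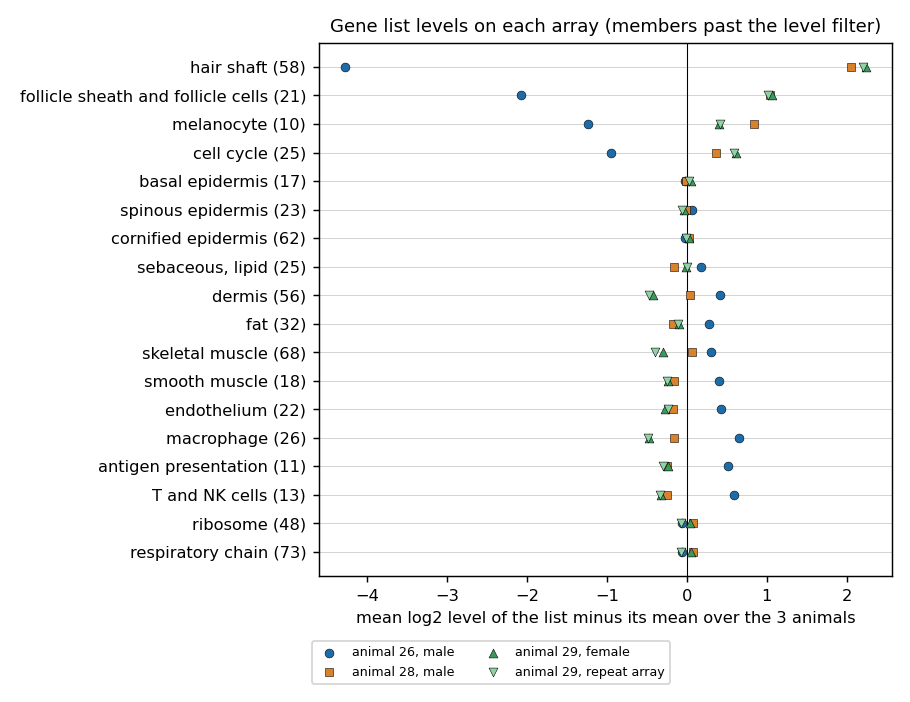
Mean log2 level of each gene list on each wildtype array, given as the difference from the list's mean over the 3 animals (the number of members past the level filter is in brackets). Hair shaft, sheath, melanocyte and cell cycle lists lie far to the left in animal 26, immune, vessel and dermal lists lie to its right, and ribosome and respiratory chain lie near 0 on all arrays.

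Mean levels of the dermal and muscle lists were graded over the animals, highest in animal 26 and lowest in animal 29. In the dermis list 39 of 56 passed, 25 with animal 29 apart and low and 11 with animal 26 apart and high. The mean of the list was 12.68, 12.31, 11.85 and 11.80. Sparc measured 15.57, 15.41, 14.49 and 14.33 (adjusted p = 0.000163). Ctsk, cathepsin K, a collagen-degrading protease of fibroblasts and osteoclasts, had the largest spread of the list with 14.41, 13.80, 11.26 and 11.51 (adjusted p = 1.26e-09). Lox, the enzyme that cross-links collagen and elastin, measured 12.82, 12.02, 9.99 and 9.97, and Aspn, a collagen-binding proteoglycan, 13.35, 12.33, 10.36 and 10.84. Of these, Gsn did not pass (adjusted p = 0.174). In skeletal muscle 48 of 68 passed, 33 with animal 29 apart and low and 12 with animal 26 apart and high, and the mean was 10.89, 10.65, 10.29 and 10.19. Myh1 measured 14.50, 14.45, 13.73 and 13.71 (adjusted p = 0.00167), whereas Acta1 did not pass (adjusted p = 0.0787; 0.0178 to 0.44 over the alternatives).

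Most immune and vessel genes were highest in animal 26, as were 47.7% of all 13440 genes. In the macrophage list 24 of 26 passed and 26 of 26 were highest in animal 26, with a list mean of 11.91, 11.10, 10.79 and 10.77. Lyz1 measured 14.78, 14.36, 14.11 and 13.98 (adjusted p = 0.0119), and Fcgr3, a receptor for immunoglobulin G, 11.94, 10.57, 10.24 and 10.29 (adjusted p = 4.28e-06). In the antigen presentation list 8 of 11 passed, 7 with animal 26 apart and high and 1, Epcam, an adhesion molecule of epithelial and Langerhans cells picked after its value was seen, with animal 26 apart and low at 10.99, 11.35, 11.51 and 11.59 (adjusted p = 0.0351). Among the 7 were Cd74 with 14.66, 13.73, 13.75 and 13.73 and Cd207, the langerin of Langerhans cells, with 10.31, 9.15, 9.41 and 8.98. Of the T and NK cell genes 5 of 13 passed and 13 of 13 were highest in animal 26. Of the B and plasma cell genes 4 of 6 passed, and Igha, the heavy chain of immunoglobulin A, measured 11.54, 9.38, 9.39 and 8.92. In the mast cell list 5 of 11 passed, with Cpa3, the mast cell carboxypeptidase, at 11.13, 10.36, 10.78 and 10.77. The neutrophil list had only 3 of 9 genes past the level filter. Of the endothelial genes 9 of 22 passed and 22 of 22 were highest in animal 26, with Aqp1, a water channel of capillaries, at 11.89, 11.31, 10.99 and 11.00. Of the smooth muscle genes 8 of 18 passed, with Acta2, smooth muscle actin, at 13.50, 13.24, 13.25 and 13.25 (adjusted p = 0.411). Follicle genes, which hold up to 51 of the 500 highest probe sets in the other animals, were mostly lower where these lists were higher, and their part in the shift was not tested. Each array had been scaled to the same trimmed mean.

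In the fat list 17 of 32 passed, 9 with animal 26 apart and high and 5 with animal 29 apart and high, and the mean was 10.73, 10.27, 10.35 and 10.33. The 4 highest members did not pass: the adjusted p was 0.671 for Car3, 0.879 for Fabp4, 0.797 for Lpl and 0.1 for Adipoq. In the sebaceous and lipid list 15 of 25 passed, 11 with animal 26 apart and high. Scd1, the desaturase of sebocytes and adipocytes, measured 14.98, 14.62, 14.74 and 14.67 (adjusted p = 0.366), and Scd3, another sebocyte desaturase, 13.38, 12.25, 11.63 and 11.77 (adjusted p = 3.22e-06). Among the groups that passed least often were the respiratory chain with 0 of 73, although 44 of the 73 were lowest in animal 26 (against 36.6% of all genes), the ribosome with 4 of 48, glycolysis with 1 of 11, and housekeeping genes with 2 of 20. Of the interferon genes 2 of 14 passed, of the immediate-early genes 7 of 25 and of the circadian genes 7 of 17. Nfil3, a transcription factor that opposes clock activators, measured 8.44, 10.28, 10.48 and 10.26.

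Animal 29 was apart and low in 614 called probe sets and apart and high in 184. Defb8, a defensin, had the largest SD of all ranked probe sets and measured 14.89, 14.33, 4.63 and 4.73, at the floor on both arrays of animal 29. S100a7l2, a relative of the alarmin psoriasin, measured 14.68, 13.61, 6.42 and 5.62. Cyp2g1, a cytochrome P450, went the other way with 6.97, 7.57, 12.50 and 12.45. These gene levels split animal 29 from the others as cleanly as the sex-linked genes did (adjusted p = 5.85e-15, 3.21e-13 and 8.96e-13). All of them held under every alternative that kept all animals. The fits without animal 26 or without animal 28 still held animal 29, so they could not test this split. Genes picked after their values were seen followed. C1qtnf3, a secreted C1q-related protein, measured 11.96, 11.05, 6.93 and 7.63, Cthrc1, a secreted protein of matrix-producing fibroblasts, 11.34, 11.17, 7.59 and 7.16, and Mmp3, the metalloprotease stromelysin, 12.94, 11.90, 9.59 and 9.55. Akr1c18, a steroid dehydrogenase that inactivates progesterone, measured 8.19, 9.28, 11.54 and 11.46. Animal 29 was the only female, so sex and animal cannot be told apart for any of them.

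**Figure D5:**
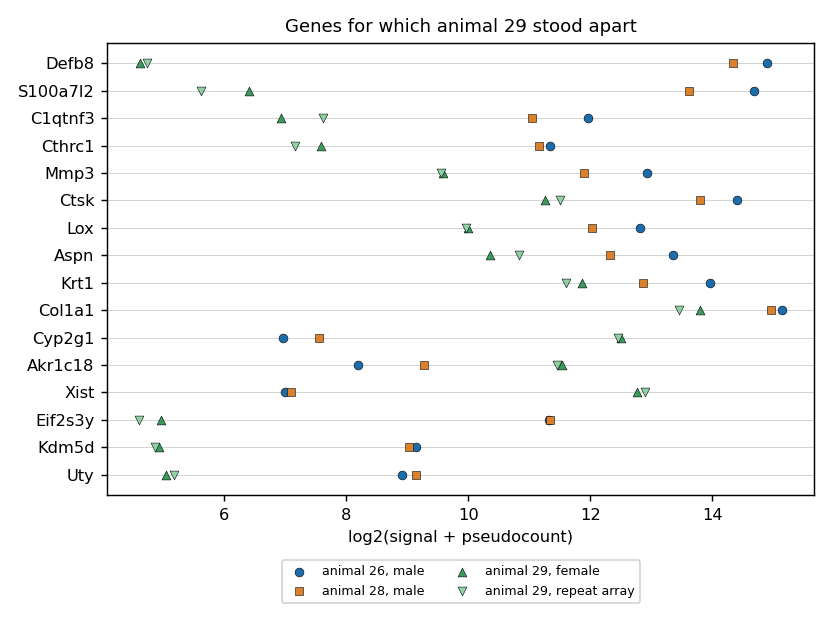
Log2 signal of 16 genes on each wildtype array for which animal 29 stood apart, the last 4 of them sex-linked. Both arrays of animal 29 agree and lie below males 26 and 28 for Defb8 and S100a7l2 and above them for Cyp2g1, Akr1c18 and Xist.

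Animal 28 stood apart for few genes, picked after their values were seen. Zic1, a zinc finger transcription factor, measured 5.93, 9.66, 5.76 and 5.35 (adjusted p = 8.75e-05), and E2f5, a transcription factor of the E2F family, 9.80, 6.90, 9.60 and 9.47 (adjusted p = 4.93e-07).

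Mammary, mesothelium and erythroid lists were mostly low, and the nerve list was mixed. In the mammary list 7 of 14 genes passed the level filter and the milk protein gene Csn2, picked after its value was seen, was at 5.45 ± 0.29 (SD, n = 3), near the floor. Elf5, an epithelial transcription factor of that list, measured 7.03 in animal 26, 9.75 in animal 28 and 9.82 in animal 29 (adjusted p = 5.54e-07), lowest in animal 26. In the mesothelium list 1 of 6 genes passed the level filter, and in the erythroid list 4 of 6. Of these only Slc4a1, the anion exchanger of red cells, was called, at 6.32, 8.17, 7.87 and 7.89 (adjusted p = 0.00443). The others did not follow it as a set. Alas2 and Hbb-b2 were highest in animal 26 and Hba-a2 was lowest there (adjusted p = 0.338, 0.512 and 0.877). Probe sets with several gene symbols were not ranked, so any that match several globin genes are missing from the erythroid list. Its low level therefore does not give the level of blood transcripts in the skin. In the nerve list 5 of 11 were called, against 22.6% of all genes. Among its highest members were Pmp22, a myelin protein also made by fibroblasts, at 13.13, 12.47, 12.23 and 12.18 (adjusted p = 0.000833) and Mbp, myelin basic protein, at 11.71, 11.19, 10.62 and 10.61. S100b and Sox10, picked after their values were seen, had means of 7.76 and 7.64. Both lay below 9.26, the median of all 13440 genes.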

How the data were processed

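Gene expression in wildtype mouse belly skin was read from signal intensity values on a linear scale, deposited by the authors and made with MAS5 per the submitters' processing notes (no version given). Detection calls were not used here. Each array's mean without the lowest and highest 2% of values was 500. Controls (64 of 45101 probe sets) were left out. Of the other 45037, 34945 had 1 gene symbol in the array annotation, 932 several and 9160 none; only the first were ranked.

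Values were log2(intensity + 21.8), the 20th percentile of the values on all 8 arrays, with no further normalization. Arrays of animal 29 were averaged. A level filter left probe sets under the 40th percentile of mean log2 (6.50) out of tests and of the variable set. A linear model with animal as a factor was fitted with limma 3.58.1 in R 4.3.3 (empirical Bayes with trend, moderated F, Benjamini-Hochberg over 27022 probe sets, adjusted p under 0.05, 1 residual degree of freedom per probe set). In each called probe set the animal farther from the middle value was named as apart. Gene lists were disjoint, and the most abundant probe set stood for a gene.

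Members, lists and tests were chosen with earlier results of these data known. Genes were named by rule: those of the 25 highest probe sets, of the 15 steadiest, of the 15 most variable and of the 10 called with the largest range, 4 highest and 3 most variable per list, 5 markers and sex-linked genes; exceptions are marked. Promoters were matched by gene ID, symbol or synonym; the short motif window and its gene sets were chosen after seeing the data. Protein features were planned and not analysed here.

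On simulated data with 200 of 27022 probe sets shifted in 1 animal, shifts of 1, 2 and 3 (log2) were recovered for 69%, 99% and 99.5%. False calls numbered 21, 27 and 35, and 4 without any shift. Alternatives covered pseudocount (5.45 or 87.2), quantile normalization, level filter, probe set choice, each array of animal 29, each animal left out, and limma settings. Python 3.11.15, numpy 2.4.6, pandas 2.3.3 and matplotlib 3.10.9 were used.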

Additional observations from a re-analysis of the deposited data

How the results depend on the processing

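No paired analysis was possible because animal numbers are not shared between groups and no groups were compared. Animal 26 decided most of what moved. With 1 animal left out in turn, follicle probe sets numbered 2 to 50 among the 500 highest (50 without animal 26) and 0 to 64 among the 100 most variable (0 without animal 26). Those in no list numbered 33 to 84 among the most variable (84 without animal 26), and immune ones 6 to 12 among the 500. Among the 100 steadiest, ribosomal ones numbered 10 to 30 and epidermal ones 5 to 9, both lowest without animal 26. The count of probe sets that differ between animals was 321 without animal 26 and 5872 without animal 28 (of 27022; 4865 with all). Leaving out animal 29 removes the repeat, so that fit was not run. The count was also 1222 with no level filter, 317 without a trend and 2837 at an adjusted p under 0.01; the causes were not tested. Without probe sets of the types that match related sequences, the 500 held 7 follicle, 6 immune and 32 ribosomal ones. With 1 probe set per gene they held 6 follicle and 36 ribosomal ones. With array 29 alone, the steadiest held 5 epidermal ones. Pseudocount and quantile normalization moved none of the counts by over 1.5 times, and at least 497 of the 500 highest were shared with them. For named genes, 1920 adjusted p-values kept their side of the threshold under an alternative, 282 lost it and 31 gained it. The level of a probe set limits what can be called, as 4.34% passed in the lowest of 4 equal level bins.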

Other observations

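Probe sets without a gene symbol were outside the ranking. Of 9160 such probe sets, 39 reached the level of the 500 highest, 12 had an SD as large as the 100 most variable, and 305 of 3072 tested passed the test between animals (9.93%). Of 932 probe sets with several symbols, 122 reached that level, 6 had such an SD and 129 of 631 passed (20.4%).

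Other probe sets of a gene did not always give its level. Lor had means of 14.30, 13.74 and 7.12 over its 3 probe sets, and Col1a1 had 14.58 and 11.67 over its probe sets; both probe sets of Col1a1 were lowest on the arrays of animal 29. The first probe set of Xist measured 12.77 on the first array of animal 29, and the others there 8.65 and 7.67.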
